A study of Mus musculus with 8 samples.

Results

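Imprinted genes with roles in growth control were followed in long-term hematopoietic stem cells (LT-HSC), taking the genes that lie outside the imprinted cluster of Dlk1 itself. They are 10 named genes: Igf2, H19, Igf2r, Grb10, Gnas, Ndn, Plagl1, Peg3, Impact and Mest. Of these, 9 had a row in the tables, among 18174 gene symbols in all, and Mest is not analysed here. Their values come from 541 cells in 8 libraries, 220 cells sorted as Dlk1+ and 321 sorted as Dlk1-. All cells came from untreated male wild-type C57BL/6J mice aged 18 months. Marrow was pooled from several bones, and cells were sorted as Lin-CD150+CD48-CD34-Kit+Sca1+ and then by surface Dlk1, a Notch-related protein whose gene is also imprinted. Single-cell RNA was read with mCEL-Seq2, a plate method that marks the 3' end of each polyadenylated RNA by cell and, through a unique molecular identifier (UMI), by molecule. Each group had 4 libraries, with replicates 1 and 2 on plate 5 and replicates 3 and 4 on plate 6. Which animals gave which library is not in the labels, so p-values measure the spread between libraries, which may be technical.

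An imprinted gene is expressed from only 1 parental copy, according to DNA methylation set in the egg or sperm. Many imprinted genes form opposing pairs in growth. Paternally expressed Igf2 encodes a fetal growth factor, while maternally expressed Igf2r encodes a receptor that carries IGF2 to lysosomes and maternally expressed Grb10 encodes an adaptor that dampens insulin and IGF receptor signalling. In blood stem cells the H19-Igf2 domain is known for its part in quiescence. The mice were inbred, so the parental copy behind a transcript could not be read here, and all values are totals over both copies.

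Each table had 192 barcodes, of which a library used its own set of 96: 1 to 96 in Dlk1+ and 97 to 192 in Dlk1- libraries. Cells are the barcodes of that set with 1000 transcripts or more. Barcodes 17, 20 to 24 and 29 to 32 were left out, since they carried many UMIs also in Dlk1- libraries, where no sorted cell belongs to them. Libraries kept from 26 to 96 cells and from 38488 to 496831 UMIs. Dlk1+ replicate 3 was the shallowest, with 26 cells and a median of 1296 UMIs per cell, against medians of 3403 to 5521 in the other 7 libraries. Levels are given in CPM, counts per 1000000 transcripts of the library. A single UMI was worth 26.0 UMIs per 1000000 in that library and 2.01 to 10.0 in the others. The sorted gene fitted its labels: the level of Dlk1 was 507 ± 146 CPM in the former sort and 28.6 ± 23.9 CPM in the latter (SD, 4 libraries each). The 10 HSC markers (Procr, Hlf, Mecom and others) summed to 1664 to 2641 CPM in Dlk1+ and 1941 to 2438 CPM in Dlk1- libraries. Markers of myeloid cells (4 of 5 in the tables) summed to 4442 CPM in Dlk1+ replicate 4 and to at most 7.58 CPM in the other 7. Most of that signal is in 1 cell: 12 cells had such a UMI, 1855 in all, and only 1 cell had at least 20. That cell was kept. Without it the library had 419573 transcripts, beside 456843 with it.

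All 9 genes with a row had at least 1 UMI in the kept cells, so none was seen only on the barcodes left out. They differed widely in level. Averaged over the 8 libraries, Gnas had 481 ± 150 CPM, Grb10 106 ± 33.7, Ndn 50.2 ± 14.6, Impact 40.5 ± 23.1 and Igf2r 37.7 ± 13.6 CPM (SD, n = 8). Gnas and Grb10 lay apart from each other and from the rest, but Ndn, Impact and Igf2r did not differ from one another beyond these SDs. Each of these 5 genes had UMIs in all 8 libraries. The other 4 were near the limit of detection: Igf2 had 36 UMIs in 28 cells, H19 9 UMIs in 7 cells, Peg3 9 UMIs in 8 cells and Plagl1 2 UMIs in 2 cells. Because each transcript is counted at its end, these levels need no correction for gene length.

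**Figure D1:**
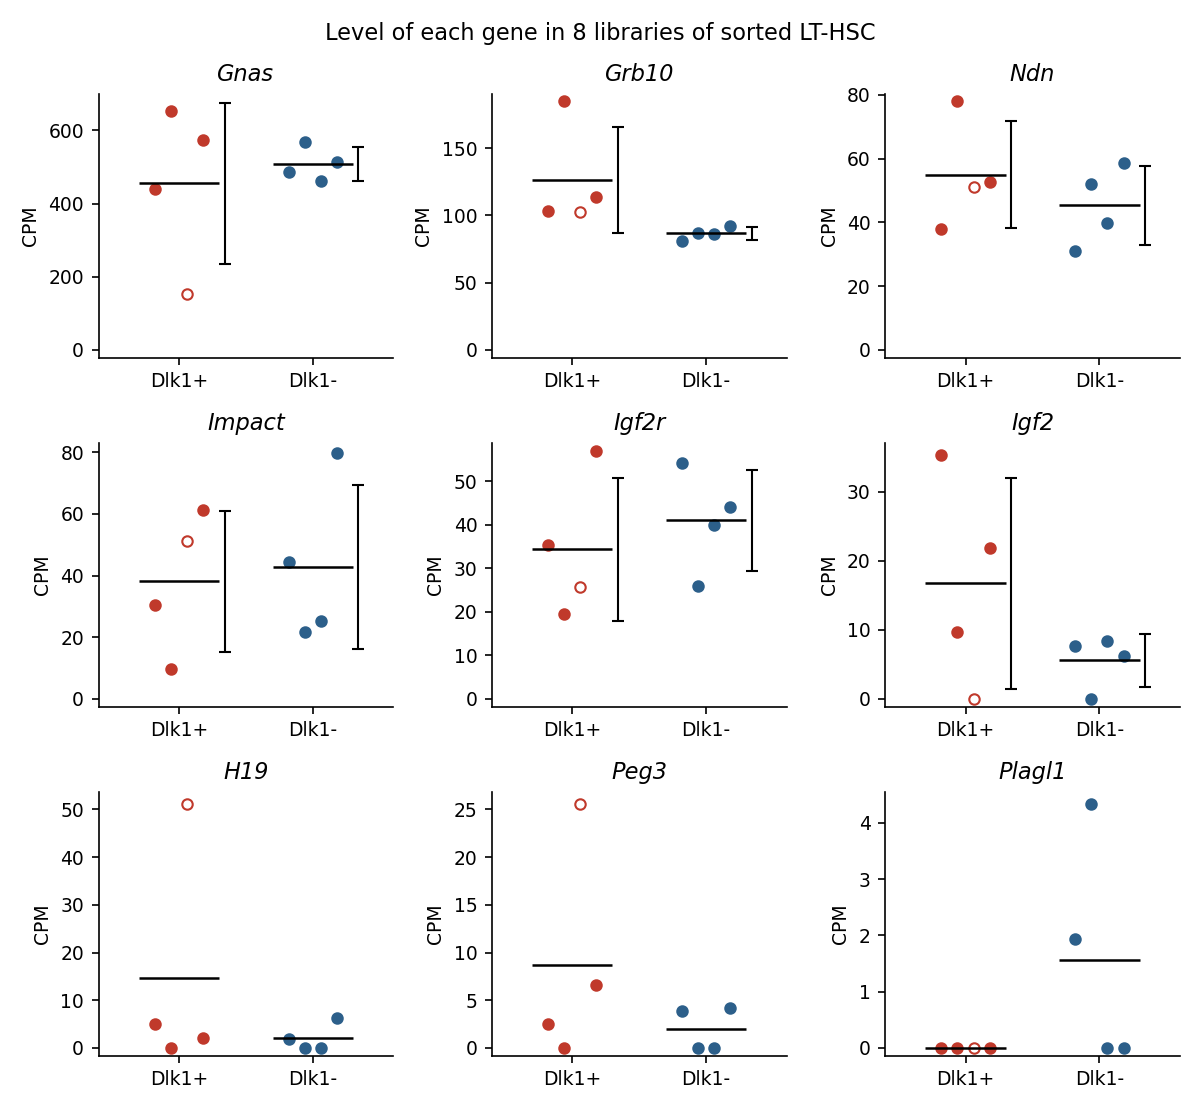
CPM (vertical axes, linear, a different range in each panel) of the 9 genes in Dlk1+ (red) and Dlk1- (blue) libraries, replicates 1 to 4 from left to right. Points are libraries, the open point is the shallow Dlk1+ replicate 3, horizontal lines are group means and bars are SDs, drawn only for genes with at least 10 UMIs. The groups overlap for each gene except Grb10, where the 4 Dlk1+ libraries (102 to 185 CPM) sit above the 4 Dlk1- libraries (81.2 to 92.2 CPM).

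The first question was whether any of these genes differs between the sorts. Of the 10, 5 passed the filter on low counts (Gnas, Grb10, Ndn, Impact and Igf2r), and none was called by limma on log2(CPM + 1) with Benjamini-Hochberg adjustment over 5666 genes and a threshold of 0.05. This fit called 0 genes (0%), Dlk1 included, and 197 had an unadjusted p under 0.05. The limma-voom fit, which weights each library by its counts, called 2 genes (0.0353%), Dlk1 and Timp3, a secreted protease inhibitor, and 369 had an unadjusted p under 0.05. No member was among them. The median log2 fold change of all genes was -0.23 in the first fit, -0.04 with limma-voom and -0.04 in the first fit without Dlk1+ replicate 3, so fold changes are also read against that median. A call missing here does not show that levels were alike, and intervals are given for that reason.

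**Figure D2:**
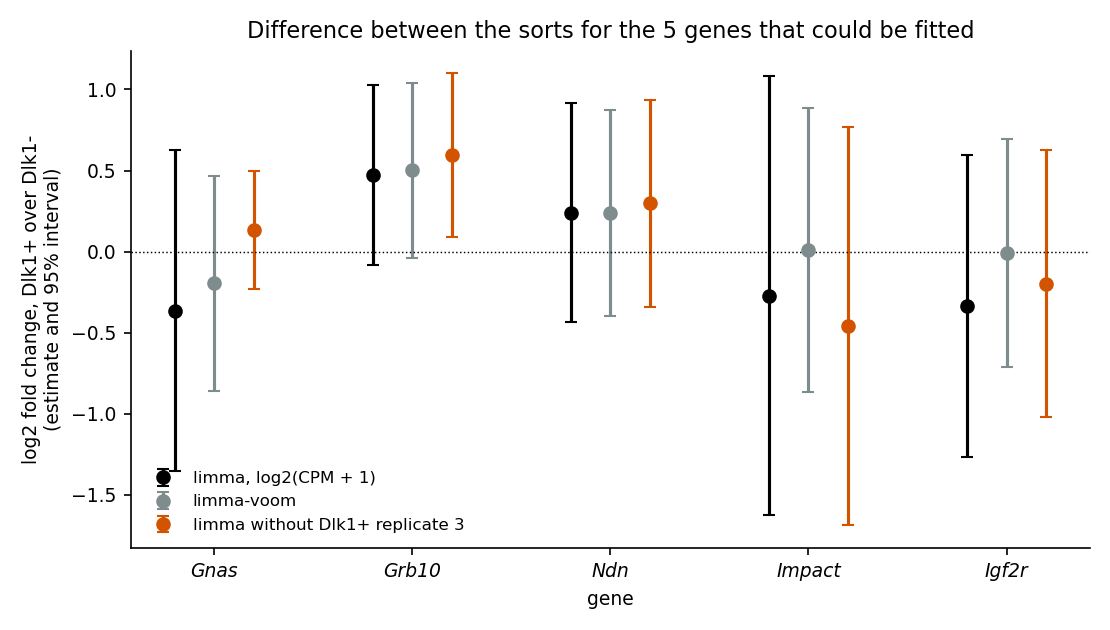
Log2 fold change, Dlk1+ over Dlk1- (vertical axis), of the 5 genes that could be fitted, with 95% intervals, from limma on log2(CPM + 1) (black), limma-voom (grey) and limma without Dlk1+ replicate 3 (orange). Grb10 is the gene furthest above 0 in each fit (0.47, 0.50 and 0.60), and Gnas moves from -0.36 to 0.13 when the shallow library is left out.

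Igf2 (chr7:142650766-142666816, minus strand, GRCm38), the growth factor, was sparse. Dlk1+ replicates 1 to 4 had 14, 1, 0 and 10 UMIs, or 35.4, 9.76, 0 and 21.9 CPM. Dlk1- replicates 1 to 4 had 4, 0, 4 and 3 UMIs, or 7.73, 0, 8.41 and 6.29 CPM. The higher Dlk1+ values came from replicates 1 and 4, while replicate 3, at 0, lay at the bottom of the range with Dlk1- replicate 2, so the groups overlapped. Group means were 16.8 ± 15.3 and 5.61 ± 3.84 CPM (SD, n = 4 each), and a two-sided exact permutation test of the 8 libraries (70 ways to assign them) gave an unadjusted p of 0.229. The 0 in Dlk1+ replicate 3 allows up to 77.9 UMIs per 1000000 (3 counts), which is above every value measured. The difference in means, 11.2 CPM, was 4.94 CPM without Dlk1+ replicate 1 and 16.7 CPM without replicate 3 (p = 0.0571 in the exact permutation test, the smallest that 3 against 4 libraries can give). Markers of marrow stroma (9 of 10 in the tables, 4 to 6 of them at 0 in each library) summed to 45.5, 117, 102 and 32.8 CPM in Dlk1+ replicates 1 to 4 and to 19.3 to 34.7 CPM in Dlk1- libraries, and their part in the result was not tested. Igf2 did not pass the filter on low counts, so it has no fold change from the fit.

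Cell by cell, an Igf2 UMI was found in 19 of 220 Dlk1+ cells (8.64%, 95% Wilson interval 5.60 to 13.1) and 9 of 321 Dlk1- cells (2.80%, 1.48 to 5.24). These pooled intervals cover counting error only and not the spread between libraries. No cell had more than 2 Igf2 UMIs. In Dlk1+ libraries 4 of the Igf2 UMIs lay on barcodes 18, 19 and 25 to 28. Those barcodes also held 4 Igf2 UMIs in Dlk1- libraries, where they were unused. By library, Igf2 was in 11 of 86, 1 of 27, 0 of 26 and 7 of 81 Dlk1+ cells, and in 4 of 96, 0 of 36, 2 of 95 and 3 of 94 Dlk1- cells. After thinning every cell to 1000 UMIs, which left out no cell, the shares were 5.81%, 0%, 0% and 2.47% in Dlk1+ and 2.08%, 0%, 1.05% and 0% in Dlk1- libraries (p = 0.543, two-sided exact permutation test). These shares rest on 7 Dlk1+ and 3 Dlk1- cells, too few to show whether the sorts differ.

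Among Dlk1+ cells, those with Igf2 more often had a Dlk1 UMI, as did those with Gnas, Ndn or Igf2r. A Dlk1 UMI was seen in 17 of these 19 cells (89.5%), against 136 of the 201 Dlk1+ cells without Igf2 (67.7%). Median depth was 4528 UMIs in the former and 3821 in the latter, and the part of depth in this gap was not tested. For Gnas the gap was wider, with Dlk1 in 123 of 161 cells (76.4%) with a Gnas UMI and 30 of 59 (50.8%) without, at median depths of 4427 and 2424 UMIs. These counts pool the libraries, and the shallow Dlk1+ replicate 3 had a Gnas UMI in only 5 of 26 cells. The part of such differences between libraries was not tested. Meg3, the maternally expressed non-coding RNA of the Dlk1 cluster, was in 14 of the 19 (73.7%) and in 103 of the 201 (51.2%). In Dlk1- libraries 0 of the 9 cells with Igf2 had a Dlk1 UMI, against 18 of the 312 without (5.77%). All 28 cells with Igf2 had UMIs of the HSC marker list, from 2 to 25 per cell. UMIs of the liver list were seen in 2 of the 19 Dlk1+ cells, both on barcode 25, and in 1 of the 9 Dlk1- cells. Barcodes 17 and 20, left out above, carried both Igf2 and Dlk1 in Dlk1- libraries, where no sorted cell belongs to them. They held 106 Igf2 and 18 Dlk1 UMIs among 7764, against 11 and 43 among 1653424 on barcodes 97 to 192. Barcodes 18, 19 and 25 to 28, also unused there, held 4 Igf2 and 0 Dlk1 UMIs. The part of such RNA in the Igf2 and Dlk1 counts of Dlk1+ cells was not tested.

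H19 (chr7:142575529-142578143, minus strand, GRCm38), the maternally expressed non-coding RNA next to Igf2 that also carries the precursor of miR-675, was rarer still. It had 2, 0, 2 and 1 UMIs in Dlk1+ replicates 1 to 4 and 1, 0, 0 and 3 in Dlk1- replicates. With 9 UMIs in all, H19 was under the 10 needed for a test. The highest H19 level, 51.2 CPM in Dlk1+ replicate 3, rests on 2 UMIs of a shallow library. The 3' tags do not count miR-675 itself.

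Igf2 and H19 were abundant on the barcodes left out, and there on 2 barcodes, 17 and 20. The kept cells of all libraries together held 36 Igf2 and 9 H19 UMIs, while the 10 barcodes held 170 and 230. In Dlk1- libraries, whose own set does not include them, barcodes 17 and 20 carried 32, 24, 24 and 26 Igf2 UMIs and 43, 40, 41 and 29 H19 UMIs in replicates 1 to 4. The counts were alike in all 4 libraries, whatever their number of cells. Per 1000000 UMIs on those barcodes this was 13653 for Igf2 and 19706 for H19, or 1.13% to 1.48% and 1.65% to 2.39% of the UMIs there by library. In Dlk1+ libraries, where sorted cells share these barcodes, they carried 26, 8, 4 and 25 Igf2 and 32, 6, 1 and 34 H19 UMIs. The remaining 8 of the 10 barcodes had 0 Igf2 UMIs in Dlk1+ and 1 in Dlk1- libraries, although they held 4160 and 7630 UMIs of the haemoglobin gene Hba-a1.

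**Figure D3:**
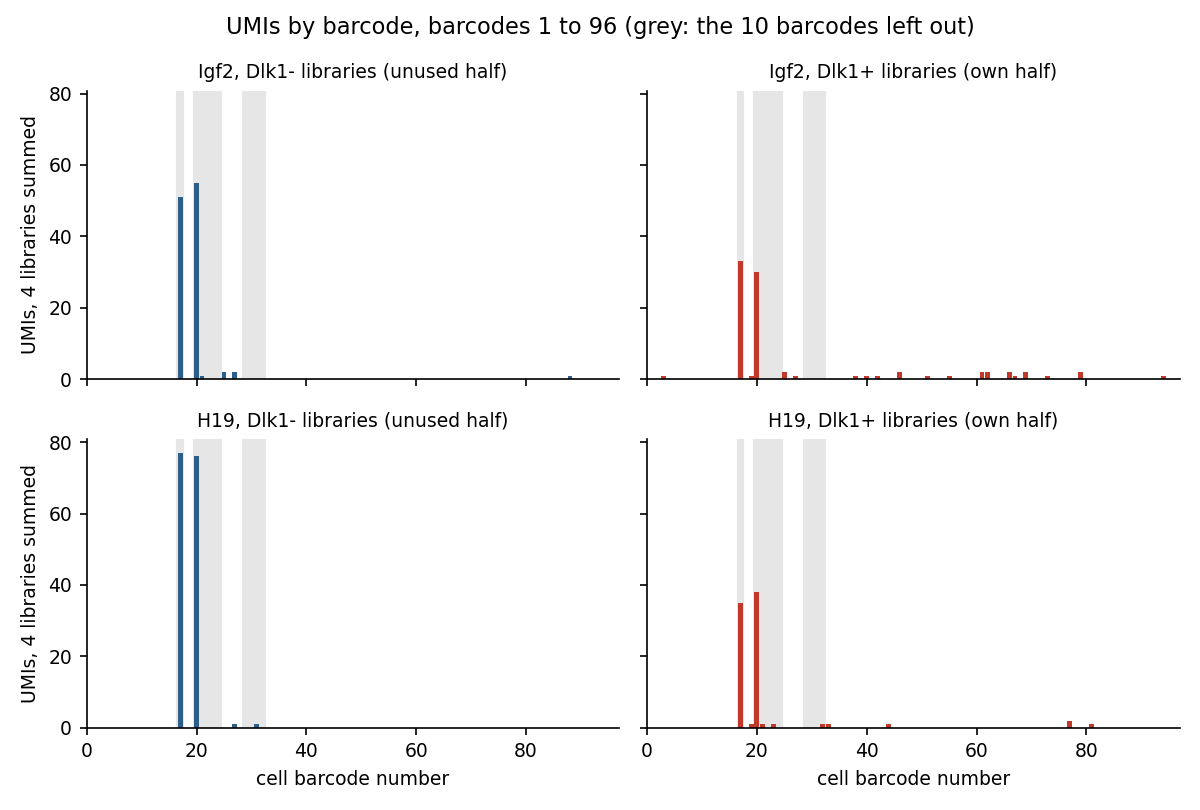
UMIs of Igf2 (top) and H19 (bottom) summed over 4 libraries (vertical axis) against the barcode number from 1 to 96 (horizontal axis), in Dlk1- libraries (left, unused there) and Dlk1+ libraries (right, in use there). Grey bands mark the 10 barcodes left out. Barcodes 17 and 20 stand out in both groups, with 106 Igf2 and 153 H19 UMIs in Dlk1- libraries, while the other Igf2 UMIs of Dlk1+ libraries are spread over many barcodes.

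Barcodes 17 and 20 also carried liver RNA. The 10 genes of the liver list (Alb, Afp and others) had 397 UMIs there in Dlk1- and 211 in Dlk1+ libraries, against 35 and 29 in the kept cells of all 4 libraries of each group. H19 made up 59.1% (Wilson 53.0 to 64.9) of the 259 Igf2 and H19 UMIs on barcodes 17 and 20 of Dlk1- libraries, but 16.7% (7.34 to 33.6) of the 30 in kept Dlk1+ cells and 26.7% (10.9 to 52.0) of the 15 in kept Dlk1- cells. Igf2 made up 21.1% (17.7 to 24.9) of Igf2 and liver UMIs on these barcodes of Dlk1- libraries and 23.9% (13.9 to 37.9) in kept Dlk1- cells, but 46.3% (33.7 to 59.4) in kept Dlk1+ cells. The H19 share was thus lower in the kept cells of both sorts than on these barcodes, while the Igf2 share was higher in kept Dlk1+ cells and similar in kept Dlk1- cells. The liver list was not made up alike in both places. In Dlk1- libraries Alb and Afp had 69 and 49 UMIs on barcodes 17 and 20, but 2 and 12 on barcodes 97 to 192. The Igf2 shares are therefore not a like-for-like comparison. The part of RNA from barcodes 17 and 20 in either group was not tested.

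Neighbouring barcodes were not free of Igf2. Barcodes 18, 19 and 25 to 28 had 4 Igf2 UMIs among 1217 UMIs in Dlk1- libraries, where they hold no cell of the library, and 4 among 73702 in Dlk1+ libraries. Without these barcodes the Igf2 difference in means was 10.1 CPM, beside 11.2 CPM with them (p = 0.229 in both, two-sided exact permutation test). On the other barcodes from 1 to 96, Dlk1- libraries had 1 Igf2 UMI in 12876, or 77.7 per 1000000 (95% Poisson interval 1.97 to 433), and on barcodes 97 to 192 Dlk1+ libraries had 0 in 9570 (upper bound of the 95% Poisson interval 385 per 1000000). Few UMIs of any gene fell on unused barcodes, so these rates are imprecise. By count, the same other barcodes from 1 to 96 held 1 Igf2 UMI in the 4 Dlk1- libraries, where they were unused, and 21 in the 4 Dlk1+ libraries, where they were in use (22.7 per 1000000). All 96 unused barcodes of the Dlk1+ libraries held 0.

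**Figure D4:**
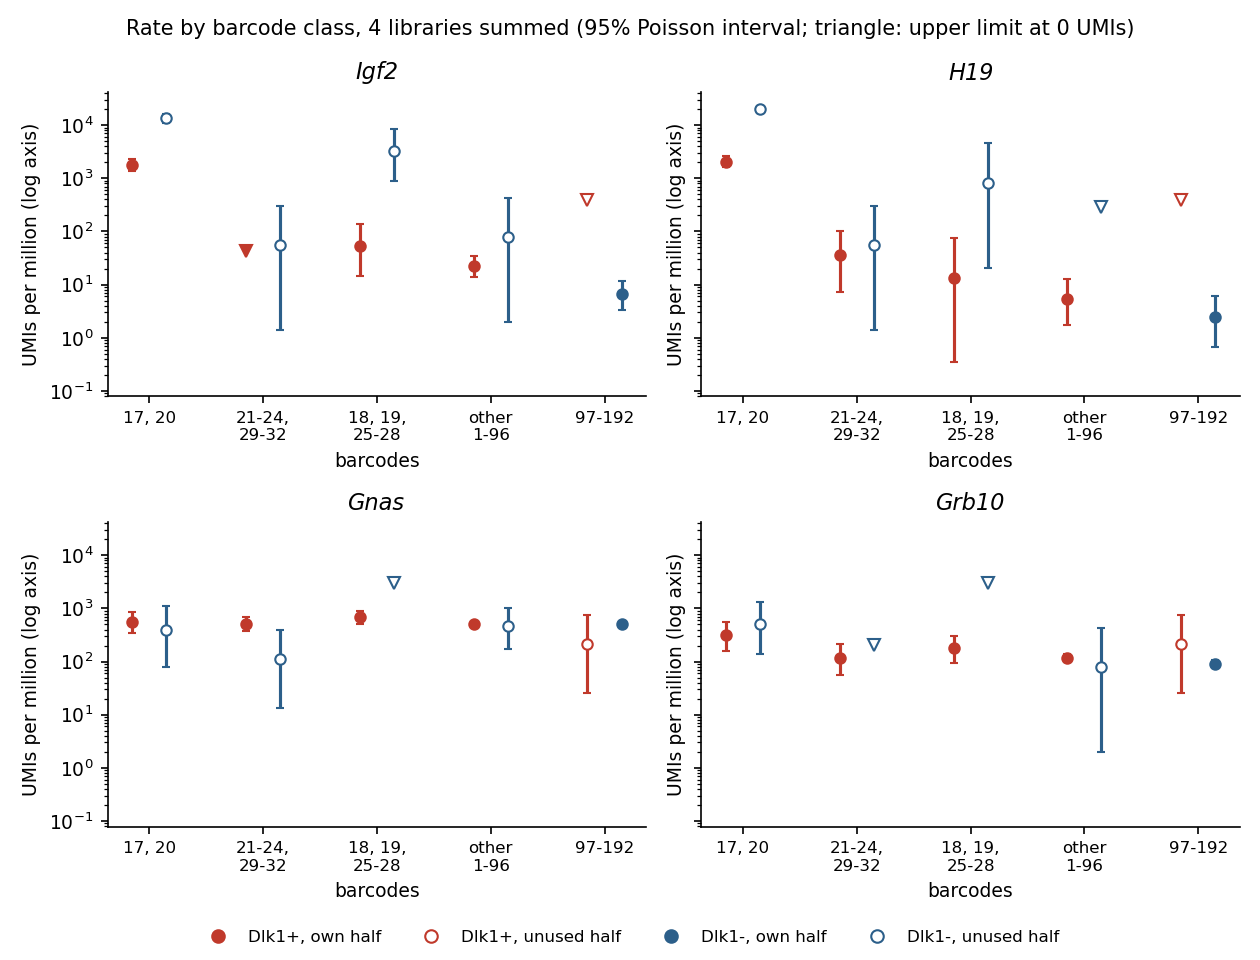
UMIs of the gene per 1000000 UMIs (vertical axes, log scale) on 5 classes of barcodes (horizontal axes), 4 libraries summed, for Igf2, H19, Gnas and Grb10, in Dlk1+ (red) and Dlk1- (blue) libraries. Filled points are barcodes in use, open points unused, bars are 95% Poisson intervals, and triangles are upper limits where no UMI was seen. Igf2 falls from 1777 per 1000000 on barcodes 17 and 20 to 22.7 on the other barcodes from 1 to 96 of Dlk1+ libraries, while Gnas is at 564 and 508.

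Leaving the 10 barcodes in would have changed the Igf2 and H19 comparisons. Igf2 would have been at 89.4, 38.2, 45.2 and 68.0 CPM in Dlk1+ replicates 1 to 4, all above the Dlk1- libraries (0 to 8.41 CPM). Its difference in means would then have risen from 11.2 to 54.6 CPM, with the permutation p falling from 0.229 to 0.0286, and its limma log2 fold change would have been 3.55 (SE 0.89, unadjusted p 0.00301, adjusted p 0.645). H19 would have been at 78.3, 19.1, 67.8 and 72.0 CPM against 0 to 6.29 CPM.

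Igf2r (chr17:12682406-12769664, minus strand, GRCm38), the maternally expressed receptor that clears IGF2, was present at a low level in both sorts. Dlk1+ replicates 1 to 4 had 14, 2, 1 and 26 UMIs, or 35.4, 19.5, 25.6 and 56.9 CPM. Dlk1- replicates had 28, 6, 19 and 21 UMIs, or 54.1, 26.0, 40.0 and 44.0 CPM. The highest and the lowest libraries were both Dlk1+, so the groups overlapped. The log2 fold change was -0.34 (SE 0.41, 95% interval -1.27 to 0.59, adjusted p 0.707 by limma) and -0.01 with limma-voom, and the permutation p on CPM was 0.486 (two-sided exact test). It ran from -0.55 to -0.15 with 1 library left out, the former without Dlk1+ replicate 4 and the latter without replicate 2. An Igf2r UMI was seen in 36 of 220 Dlk1+ and 56 of 321 Dlk1- cells (16.4% and 17.4%). The antisense RNA Airn overlaps Igf2r, and whether the authors' counting used strand is not given in the sources used here. The same holds for Igf2os at Igf2 and Nespas at Gnas.

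Grb10 (chr11:11930508-12038683, minus strand, GRCm38) was the member with separate groups. Dlk1+ replicates 1 to 4 had 41, 19, 4 and 52 UMIs, or 104, 185, 102 and 114 CPM. Dlk1- replicates had 42, 20, 41 and 44 UMIs, or 81.2, 86.8, 86.2 and 92.2 CPM. Every Dlk1+ library lay above every Dlk1- library, on plate 5 as on plate 6. Among the 5666 genes tested, 63 (1.11%) had Dlk1+ libraries above all Dlk1- libraries in this way. Of the 70 ways to assign the 8 libraries, 1 gives this order, so genes without a difference show it too. Means were 126 ± 39.7 and 86.6 ± 4.53 CPM (SD, n = 4 each), with p = 0.0286 (two-sided exact permutation), the smallest that 4 against 4 libraries can give, not adjusted for the 6 members tested. The test takes the 8 libraries as unpaired.

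Across all genes the Grb10 difference was not called. The log2 fold change was 0.47 (SE 0.25, 95% interval -0.09 to 1.03, unadjusted p 0.0876, adjusted p 0.652 by limma), or 0.70 above the median of all genes. With limma-voom it was 0.50 (SE 0.26, unadjusted p 0.0669, adjusted p 0.763). The gap rests much on Dlk1+ replicate 2: without it the difference in means fell from 39.7 to 20.003 CPM and the log2 fold change to 0.24. Replicate 2 also had the highest sum of the stroma markers given beside Igf2, 117 CPM from 12 UMIs in 4 cells, and their part in the result was not tested. Counting error was as large as the gap in single libraries, since the 4 UMIs of Dlk1+ replicate 3 allow 28.3 to 266 UMIs per 1000000 and the 41 of replicate 1 allow 80.0 to 151. As a share of cells thinned to 1000 UMIs, Grb10 was in 10.5%, 11.1%, 11.5% and 12.3% of Dlk1+ and 13.5%, 8.33%, 9.47% and 8.51% of Dlk1- cells, and here Dlk1- replicate 1 was the highest (p = 0.343, two-sided exact permutation). With all UMIs it was in 79 of 220 Dlk1+ and 101 of 321 Dlk1- cells, and no cell had more than 5 UMIs. Barcodes 17 and 20 of Dlk1- libraries, unused there, held 4 Grb10 UMIs. This was 515 per 1000000 (95% Poisson interval 140 to 1319), against 88.9 on barcodes 97 to 192. The part of such RNA in the kept cells was not tested.

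Some Grb10 transcripts start at different places but share their end, and only the end was counted. In GENCODE release M21, 2 of the 9 Grb10 transcripts end within 300 bases of the gene's last base, and they begin in 2 regions. The bases after the upstream RefSeq start shown here did not begin a GENCODE transcript, while those after the downstream start did. The upstream start gives the maternally expressed form of most tissues. The 250 bases before the upstream and the downstream RefSeq start (GRCm38.p6, minus strand, 5′ to 3′) are shown because the single row of the tables sums over both. Capitals mark CG pairs, the sites of DNA methylation, which read the same on both strands. There are 40 before the upstream start at chr11:12037421-12037670 and 8 before the downstream one at chr11:12027972-12028221, against a median of 6 in all 32851 windows of this length, of which 92.1% hold at least 1.
Grb10 upstream: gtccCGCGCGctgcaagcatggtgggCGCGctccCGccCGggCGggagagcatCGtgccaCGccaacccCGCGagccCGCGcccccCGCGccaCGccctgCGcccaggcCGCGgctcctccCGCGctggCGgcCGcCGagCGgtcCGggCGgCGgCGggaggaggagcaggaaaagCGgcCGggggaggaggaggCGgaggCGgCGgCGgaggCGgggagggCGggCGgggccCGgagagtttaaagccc
Grb10 downstream: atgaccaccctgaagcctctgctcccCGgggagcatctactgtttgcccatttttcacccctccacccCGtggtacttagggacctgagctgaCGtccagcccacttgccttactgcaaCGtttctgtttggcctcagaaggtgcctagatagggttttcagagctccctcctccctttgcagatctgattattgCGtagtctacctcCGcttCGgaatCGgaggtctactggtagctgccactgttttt
The upstream window has as many CG pairs as 98.9% of all windows or more, and the downstream window as 59.7% or more.

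Gnas (chr2:174284320-174346744, plus strand, GRCm38), which encodes the stimulatory G protein subunit that couples receptors to cAMP, was by far the most abundant member. It ranked 193rd by mean CPM among the 18174 symbols. Dlk1+ replicates 1 to 4 had 174, 67, 6 and 262 UMIs, or 440, 654, 154 and 574 CPM. Dlk1- replicates had 251, 131, 219 and 245 UMIs, or 485, 569, 461 and 514 CPM. The shallow Dlk1+ replicate 3 was the lowest and Dlk1+ replicate 2 the highest, so the Dlk1- libraries lay inside the Dlk1+ range. Means were 455 ± 220 and 507 ± 46.5 CPM (SD, n = 4 each; p = 0.8, two-sided exact permutation).

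The sign of the Gnas difference depended on 1 library. The limma log2 fold change was -0.36 (SE 0.44, 95% interval -1.35 to 0.62, adjusted p 0.701), and without Dlk1+ replicate 3 it was 0.13 (SE 0.17, 95% interval -0.23 to 0.50, adjusted p 0.807). That second interval corresponds to folds from 0.851 to 1.41. A Gnas UMI was seen in 65 of 86, 24 of 27, 5 of 26 and 67 of 81 Dlk1+ cells, and in 82 of 96, 29 of 36, 78 of 95 and 82 of 94 Dlk1- cells. After thinning to 1000 UMIs the shares were 30.2%, 55.6%, 15.4% and 37.0% in Dlk1+ and 35.4%, 36.1%, 36.8% and 48.9% in Dlk1- libraries (p = 0.686, two-sided exact permutation). Dlk1+ replicate 3 was thus the lowest at equal depth too.

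Summed over the libraries, Gnas was seen in fewer cells than an even spread would give, as were the other genes looked at below. It reached 21 UMIs in 1 Dlk1+ cell and 15 in 1 Dlk1- cell, while the median cell of the 7 deeper libraries had 2 or 3. The part of cell depth in these highest counts was not tested. If each library's Gnas UMIs had been spread over its cells in proportion to depth, 459 cells would have been expected to hold at least 1, and 432 did, with fewer than expected in 7 of 8 libraries. For Grb10 the figures were 199 expected and 180 observed, and for Ndn 107 and 103. For Igf2r they were 102 and 92, for Impact 103 and 98, and for Igf2 33.6 and 28. Not every library was below: it was 6 of 8 for Grb10, 7 for Ndn, 5 for Igf2r, 4 for Impact and 3 for Igf2.

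The Gnas row likewise sums over transcripts of different starts. Of 24 transcripts in GENCODE, 12 end within 300 bases of the last base and begin in 4 regions. Background knowledge assigns the most upstream start to Nesp, expressed from the maternal copy, the next to the paternal XL alpha s form, then exon 1A, also paternal, and the last to Gs alpha, which uses both copies in most tissues. The 250 bases before 3 of these starts in RefSeq (GRCm38.p6, plus strand, 5′ to 3′, CG pairs in capitals) are shown because the 3' tags cannot tell these imprinted forms from the Gs alpha form. They lie at chr2:174284070-174284319 (Nesp), chr2:174327518-174327767 (exon 1A) and chr2:174329756-174330005 (Gs alpha).
Gnas Nesp: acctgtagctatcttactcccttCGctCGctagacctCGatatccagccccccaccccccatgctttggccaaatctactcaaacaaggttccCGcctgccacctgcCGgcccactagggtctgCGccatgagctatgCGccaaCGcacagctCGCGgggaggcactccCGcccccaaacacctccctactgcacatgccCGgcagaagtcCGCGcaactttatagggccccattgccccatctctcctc
Gnas exon 1A: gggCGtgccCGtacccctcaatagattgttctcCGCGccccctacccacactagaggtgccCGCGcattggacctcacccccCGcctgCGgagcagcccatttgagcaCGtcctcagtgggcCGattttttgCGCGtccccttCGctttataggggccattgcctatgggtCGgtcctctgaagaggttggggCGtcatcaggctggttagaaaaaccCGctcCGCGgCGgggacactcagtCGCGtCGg
Gnas Gs alpha: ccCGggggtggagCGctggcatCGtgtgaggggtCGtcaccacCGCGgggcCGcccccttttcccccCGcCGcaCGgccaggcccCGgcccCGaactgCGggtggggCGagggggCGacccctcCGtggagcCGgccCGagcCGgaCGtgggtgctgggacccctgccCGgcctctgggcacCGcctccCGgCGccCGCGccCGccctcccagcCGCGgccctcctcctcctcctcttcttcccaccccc
They hold 14, 22 and 29 CG pairs, as many as or more than 72.7%, 86.7% and 94.1% of all windows.

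**Figure D5:**
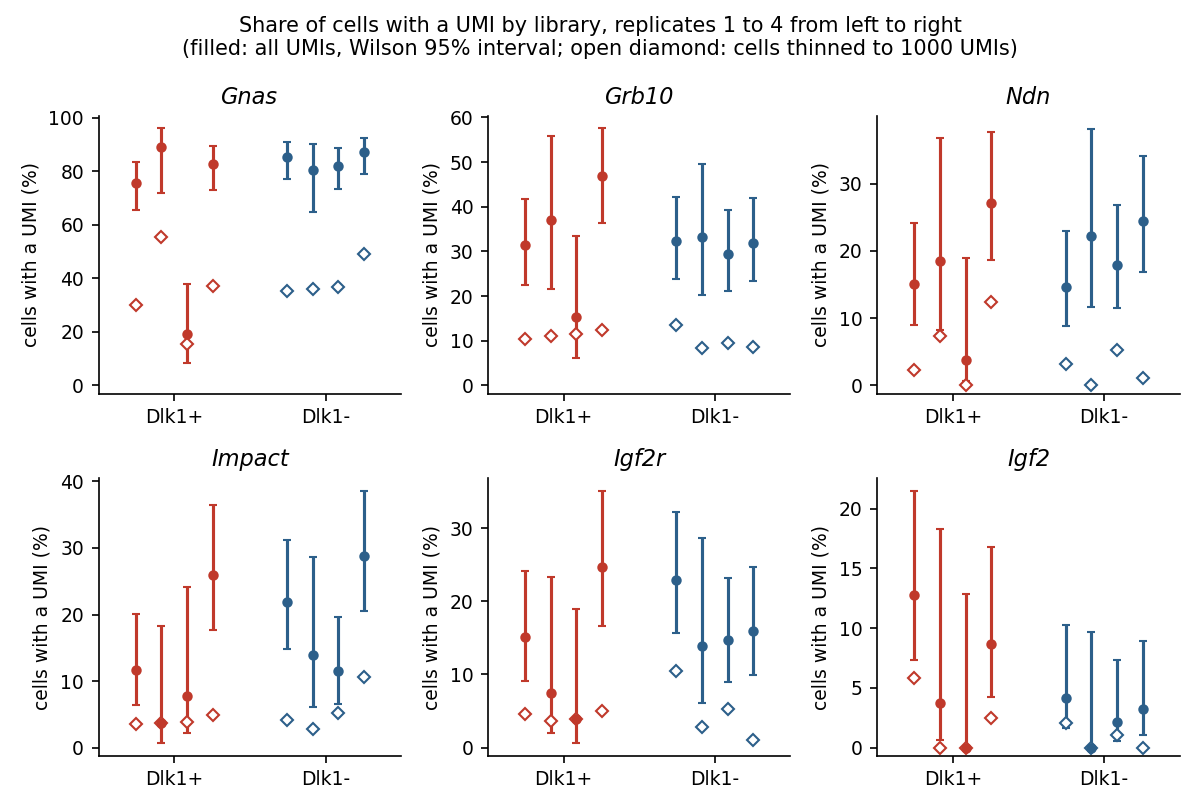
Share of cells with a UMI (vertical axes, percent) of 6 genes in Dlk1+ (red) and Dlk1- (blue) libraries, replicates 1 to 4 from left to right. Filled points use all UMIs with Wilson 95% intervals, and open diamonds use cells thinned to 1000 UMIs. At equal depth the sorts overlap for each of the 6 genes, with Gnas between 15.4% and 55.6% and Igf2 between 0% and 5.81%.

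Ndn (chr7:62346569-62350262, plus strand, GRCm38), paternally expressed and encoding the growth suppressor necdin, which is known to hold stem cells in quiescence, was found in both sorts. Dlk1+ replicates 1 to 4 had 15, 8, 2 and 24 UMIs, or 37.9, 78.1, 51.2 and 52.5 CPM. Dlk1- replicates had 16, 12, 19 and 28 UMIs, or 30.9, 52.1, 40.0 and 58.7 CPM. Dlk1+ replicate 2 was the highest and Dlk1- replicate 1 the lowest, with the other 6 libraries mixed. The log2 fold change was 0.24 (SE 0.30, 95% interval -0.44 to 0.92, adjusted p 0.712 by limma), and the permutation p on CPM was 0.486 (two-sided exact test). Leaving out Dlk1+ replicate 2 brought the log2 fold change to 0.02, and leaving out Dlk1- replicate 1 brought it to 0.09. A Ndn UMI was in 41 of 220 Dlk1+ and 62 of 321 Dlk1- cells (18.6% and 19.3%).

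Both paternally expressed zinc finger genes were at the edge of detection. Peg3 (chr7:6703892-6730431, minus strand), linked to p53-dependent cell death and growth, had 1, 0, 1 and 3 UMIs in Dlk1+ and 2, 0, 0 and 2 in Dlk1- replicates 1 to 4. Plagl1 (chr10:13060504-13131694, plus strand), also called Zac1, a regulator of cell cycle arrest, had 0 UMIs in all 4 Dlk1+ libraries and 1, 1, 0 and 0 in Dlk1- libraries. The 0 of Plagl1 over 220 Dlk1+ cells allows up to 3.14 UMIs per 1000000 (3 counts over the group), which is above the 2 UMIs seen in Dlk1- cells as a rate, so no difference was detectable at this depth. Neither gene was tested, having under 10 UMIs.

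Impact (chr18:12955852-12992950, plus strand, GRCm38) is a paternally expressed gene whose product restrains the kinase Gcn2 by binding Gcn1. Dlk1+ replicates 1 to 4 had 12, 1, 2 and 28 UMIs, or 30.3, 9.76, 51.2 and 61.3 CPM. Dlk1- replicates had 23, 5, 12 and 38 UMIs, or 44.4, 21.7, 25.2 and 79.7 CPM. The replicate 4 libraries of both sorts were the highest and the replicate 2 libraries the lowest. The log2 fold change was -0.27 (SE 0.60, 95% interval -1.63 to 1.08, adjusted p 0.839 by limma) and 0.01 with limma-voom, and the permutation p on CPM was 0.8 (two-sided exact test). Without Dlk1+ replicate 2 the log2 fold change was 0.22 and without replicate 4 it was -0.53. An Impact UMI was in 34 of 220 Dlk1+ and 64 of 321 Dlk1- cells (15.5% and 19.9%). This was the widest interval of the 5 genes fitted.

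Genes around these members were no more often called. Of 55 other imprinted genes, 47 were in the tables and 17 were tested, and 0 were called in either fit, with 9 above and 8 below 0. Their median log2 fold change was 0.12 beside -0.23 for all genes tested by limma, and 0.06 beside -0.04 with limma-voom. Kcnq1ot1, a paternally expressed non-coding RNA, had 496 ± 146 CPM in Dlk1+ and 564 ± 151 in Dlk1- libraries, and H13, a signal peptide peptidase gene, 153 ± 36.6 and 138 ± 22.9 CPM (SD, n = 4 each). Cd81, a tetraspanin gene, had 339 ± 108 and 220 ± 38.4 CPM (log2 fold change 0.56, adjusted p 0.652 by limma).

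Of 33 genes of insulin and IGF signalling, 20 were tested and 0 were called in either fit, with 10 above and 10 below 0 and a median of -0.11. The list medians of this paragraph stand beside -0.23 for all genes tested by limma. Igf1r, the receptor through which IGF2 signals, had 307 ± 177 CPM in Dlk1+ and 351 ± 103 in Dlk1- libraries. The downstream genes Pik3r1 and Akt1 had 232 ± 33.6 and 222 ± 47.9 CPM in Dlk1+ against 185 ± 30.1 and 187 ± 40.8 in Dlk1- libraries (SD, n = 4 each). Of 26 genes of Gs and cAMP signalling, 18 were tested and 0 called, with 6 above and 12 below 0 and a median of -0.19. The 3 most abundant were Gnai2 (779 ± 238 and 616 ± 45.1 CPM), Prkar1a (182 ± 21.2 and 230 ± 41.6 CPM) and Prkacb (200 ± 80.4 and 176 ± 27.2 CPM). Of 16 genes of the integrated stress response, in which Impact acts, 11 were tested and 0 called, with 4 above and 7 below 0 and a median of -0.29. Its most abundant genes were Ppp1r15a (268 ± 152 and 262 ± 75.6 CPM), Eif2s2 (167 ± 38.0 and 191 ± 24.2 CPM) and Atf4 (187 ± 116 and 112 ± 28.8 CPM), which the Gs list also holds.

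As a description of how members varied among libraries within a sort, the tested genes most correlated with each were taken over the 8 libraries after subtracting the group means of log2(CPM + 1). For Gnas they were Hip1r, Tiam1 and Ccm2, each with a Pearson r of 0.998. Grb10 had 0610011F06Rik (0.993), Fam178a (0.974) and Yeats4 (0.960). Ndn had Preb (0.985), Slc25a45 (0.953) and Egln1 (0.948). Igf2r had Ube2z (0.990), Nup210 (0.981) and Fchsd2 (0.975), and Impact had Ddx26b (0.967), Fmnl2 (0.965) and Ampd3 (0.965). The libraries share large differences in depth, and the 3 genes were picked from 5666, so these values are given with no p.

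Together the 9 genes made up a small, Gnas-led part of each library. Their summed level was 690, 957, 461 and 889 CPM in Dlk1+ and 711, 760, 661 and 805 CPM in Dlk1- replicates 1 to 4. Gnas made up 33.3% of that sum in Dlk1+ replicate 3 and 63.7% to 74.9% in the other 7 libraries. At least 1 of the 9 genes was seen in 86.1% to 96.3% of cells in those 7 libraries and in 38.5% of the cells of Dlk1+ replicate 3. The mean number of members seen per cell thinned to 1000 UMIs was 0.570, 0.815, 0.462 and 0.753 in Dlk1+ and 0.688, 0.50, 0.632 and 0.713 in Dlk1- libraries, again with overlap.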

How the data were processed

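LT-HSC of 8 libraries were read by mCEL-Seq2, which counts UMIs. Per the submitters' processing notes, BWA 0.6.2-r126 and mm10 were used. The counting annotation and strand are not given in the sources used here. The deposited tables hold other values than whole counts: per the values, UMI counts k corrected for collisions among 4096 possible UMIs, with each recovered k whole within 1e-06. These transcript estimates were summed over the cells kept of each library. Tests were planned with edgeR, but these values are not whole counts, so limma 3.58.1 (R 4.3.3) on log2(CPM + 1), with TMM factors and a mean-variance trend, took its place and limma-voom was the alternative. The filter asked for about 10 counts in 4 libraries and 15 in all. Genes with at least 10 UMIs were also tested over libraries by exact permutation (scipy 1.17.1). Poisson and Wilson intervals and limits for a count of 0 (3 counts) cover counting error only. All 10 members are named, and from each list the 3 genes of highest mean CPM. Members and lists were chosen with earlier results of these data known. Doublets were not called, and no cell was removed for a high total. Promoter windows are from RefSeq (GRCm38.p6), with 8 of 10 members matched, and gene positions from GENCODE M21 (GRCm38, the assembly of mm10).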

Additional observations from a re-analysis of the deposited data

Results flagged for a closer look

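The Grb10 level of Dlk1+ replicate 2, 185 CPM from 19 UMIs, lay far above the other 3 Dlk1+ libraries (102, 104 and 114 CPM). Of 12 gene and group combinations looked at, this was the one with such a gap. How often such a gap arises by chance was not computed, and its cause was not tested.

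Barcodes 17 and 20 of the Dlk1- libraries, which no comparison uses and which hold no sorted cell, carried 106 Igf2 and 153 H19 UMIs. Per 1000000 UMIs, Igf2 was at 13653 there and at 6.65 on barcodes 97 to 192 of the same libraries.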

How the results depend on the processing

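Of 276 values of members under an alternative, 248 kept their direction and side of the threshold, 19 changed sign, 8 lost the threshold and 1 gained it. No member was called in any of the 24 other fits. Genes called rose from 0 to 2 with limma-voom, to 1 with a pseudocount of 10 CPM and to 3 with limma-voom without Dlk1+ replicate 3, the last pair chosen after seeing the data. Leaving out 1 library gave 0 to 2, with 2 (Dlk1 and Socs3) without Dlk1+ replicate 3. Grb10 stayed between 0.24 and 0.60 (log2) over 25 fits. Its CPM difference was 20.003 to 47.7 with 1 library left out, where p was 0.0571, the smallest that 3 against 4 can give in an exact permutation test. With the 10 barcodes left in, 2 members instead of 1 had such a p under 0.05.

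Log2 fold changes changed sign for Igf2r (0.10) and Gnas (0.12) with limma-voom without Dlk1+ replicate 3. For Gnas they ran from -0.64 to 0.13 with 1 library left out, the latter without Dlk1+ replicate 3. A minimum of 2000 transcripts, which leaves 4 cells in Dlk1+ replicate 3, moved the median of all genes to -1.15, Ndn to -1.18, Gnas to -2.17 and Igf2r to -1.52. Without the predicted genes Gm10800 and Gm26870 Igf2r was at -1.59, with a median of -0.32. With 1 library left out Ndn ran from 0.02 to 0.34. For Impact it was 0.00827 with limma-voom, 0.0286 with limma-voom without Dlk1+ replicate 3, 0.0565 at that minimum and -0.53 to 0.22 with 1 library left out, above 0 without Dlk1+ replicate 2 (0.22) or Dlk1- replicate 4 (0.01). CPM differences changed sign at that minimum for Ndn (-3.34) and Impact (35.6). With 1 library left out they ran from 4.94 to 16.7 for Igf2, from -12.3 to 7.68 for Impact, and from -118 to 48.7 for Gnas, above 0 without Dlk1+ replicate 3. Differences in thinned shares changed sign for Ndn without thinning (-3.63 points) and for Igf2r (0.822) and Impact (8.2) at 2000 UMIs. With 1 library left out they ran from -11.8 to 1.62 for Gnas, above 0 without Dlk1+ replicate 3, and from -1.87 to 1.25 for Igf2r, above 0 without Dlk1- replicate 1. The cause was not tested.

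With the replicate number as a replicate block, 0 genes were called. Same-numbered libraries deviated together with weak correlations of 0.0299 to 0.0406, none over 0.1. The labels do not say that a number marks a shared animal, so the main fit had no block. All 8 correlated best with their own number, so whether the numbers mark pairs is not settled here. Libraries of 1 number also share a plate, but each plate holds more than 1 number. The permutation tests treat the 8 libraries as unpaired, and a paired version was not run. The exact permutation p of 0.0286 for Grb10 therefore holds only if the libraries are unpaired. With plate as a term 0 genes were called. The planned DESeq2 fit, a count model, was not run either, and its median-of-ratios factors were used in limma. Depth limits Igf2, H19, Peg3 and Plagl1 most.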

Other observations

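After thinning all 541 cells to 1000 UMIs, pairs of members were seen in the same cell about as often as their separate shares give for most of 15 pairs. Gnas and Grb10 were together in 22 cells, with 21.5 expected. Igf2 and Igf2r, the ligand and the receptor that clears it, were together in 4 cells, with 0.592 expected. Grb10 and Impact were together in 0 cells, with 2.98 expected. These pairs were picked after their values were seen, and none was tested.

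Of the other members, a Dlk1 UMI was more frequent in Dlk1+ cells with Ndn (34 of 41) than in those without (119 of 179), with median depths of 4711 and 3639 UMIs, and less frequent with Impact (21 of 34) than without (132 of 186), with median depths of 4547 and 3712 UMIs. In Dlk1- cells the order for Impact was the opposite (9.38% with and 4.67% without), and for Ndn the same (9.68% and 4.63%). These counts pool the libraries of a sort. None of these differences was tested, nor the part of depth or library.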
